A study of Mus musculus with 4 samples.

Results

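In lung endothelial cells, 10 genes were followed as regulators and cadherins of endothelial-to-mesenchymal transition. They are the zinc finger factors Snai1 and Snai2, the basic helix-loop-helix factors Twist1 and Twist2, the zinc finger homeobox factors Zeb1 and Zeb2, the homeobox factor Prrx1, the high mobility group factor Sox9 and the cadherins Cdh2 and Cdh11. The members were chosen by gene symbol, and all 10 were found among the 17915 coding genes of the deposited table. The study compared lung endothelial cells that had once switched on the alpha smooth muscle actin gene (Acta2) with those that had not. All mice carried Cdh5-CreER, a tamoxifen-dependent Cre under the promoter of the endothelial cadherin Cdh5, together with aSMA-LSL-Dre, a Dre recombinase at the alpha smooth muscle actin gene that Cre unlocks, and a reporter named NR1. Tamoxifen was given 5 times. Transverse aortic constriction, a narrowing of the aorta that loads the heart, had been in place for 6 weeks in both groups, and no unoperated group is compared. Endothelial cells without a record of alpha smooth muscle actin were ZsGreen+ and those with one, even if brief, were tdTomato+. Each group has 2 bulk RNA libraries labelled as biological replicates. The ages of the mice, and whether libraries came from separate or pooled animals, are not stated by the labels. A p-value here therefore reflects variation among the 4 libraries alone, which may be partly technical.

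In endothelial-to-mesenchymal transition, endothelial cells loosen their junctions and take on matrix-producing or contractile features. Snail and Zeb factors are repressors that bind E-boxes, short motifs in junction genes such as the epithelial cadherin Cdh1, and Twist factors act on the same genes with E protein partners. A change from the junctional cadherin of a cell type to N-cadherin (Cdh2) or cadherin 11 (Cdh11) is a textbook sign of the mesenchymal state. Prrx1 and Twist factors are also known from fibroblasts, and Sox9 from cartilage and airway epithelium.

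The promoter of Snai1 is shown because Snai1 was the member with the highest level and because its window holds an E-box of the kind that Snail and Zeb factors bind. The promoter of Prrx1 is shown because Prrx1 had the largest fold change, and that of Twist1 because Twist1 had the fewest reads. Each window holds the 250 bases before an annotated start, 5′ to 3′ on the gene's strand, from RefSeq for GRCm38.p6. The windows are at chr2:167537945-167538194 (plus strand) for Snai1, chr1:163313651-163313900 (minus strand) for Prrx1 and chr12:33957421-33957670 (plus strand) for Twist1. On its strand the span of Prrx1 in the deposited table begins at 163315145. The Prrx1 window thus lies inside the gene, before an internal start, and the gene has 9 transcripts in the table. Capitals mark the E-box CACCTG, searched on both strands as CACCTG or CAGGTG.
Snai1: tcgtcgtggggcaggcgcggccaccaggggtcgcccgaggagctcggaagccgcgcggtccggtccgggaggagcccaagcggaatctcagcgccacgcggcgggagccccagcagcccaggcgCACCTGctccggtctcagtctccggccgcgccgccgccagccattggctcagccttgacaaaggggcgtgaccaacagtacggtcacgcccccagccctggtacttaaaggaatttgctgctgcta
Prrx1: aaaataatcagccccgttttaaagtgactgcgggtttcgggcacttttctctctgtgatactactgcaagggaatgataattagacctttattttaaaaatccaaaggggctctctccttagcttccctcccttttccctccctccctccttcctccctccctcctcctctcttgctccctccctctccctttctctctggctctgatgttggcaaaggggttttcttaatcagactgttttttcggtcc
Twist1: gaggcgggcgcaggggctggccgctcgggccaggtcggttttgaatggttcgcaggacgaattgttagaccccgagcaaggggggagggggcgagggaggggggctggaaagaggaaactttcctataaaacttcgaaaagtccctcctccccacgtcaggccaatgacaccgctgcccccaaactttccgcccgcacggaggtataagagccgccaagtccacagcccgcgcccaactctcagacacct

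The E-box of Snai1 begins 126 bases before the start. Such a motif was present in 17.2% of the 32851 promoter windows of this length. Among the 10 members 5 had an entry in the promoter table, with 8 windows in all, and the windows of Prrx1, Twist1, Twist2 and Zeb2 held none. The Snai1 window was 70% G or C and held 27 CG pairs, and the Twist1 window was 62.4% G or C with 18 CG pairs. The Prrx1 window was 47.6% G or C with 4 CG pairs, against medians of 52.4% and 6 over all windows. The Twist1 window was thus rich in CG pairs, and the gene was near 0 in every library. A relation between CG content and transcript level was not tested.

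None of the 8 members with enough reads for a test was called between tdTomato+ and ZsGreen+ cells. The other 2, Twist1 and Twist2, had too few reads. edgeR's quasi-likelihood test with Benjamini-Hochberg adjustment called 40 of 13177 genes at an adjusted p under 0.05 (0.304%), of which 22 were higher (0.167% of all tested) and 18 lower (0.137%) in tdTomato+ cells. The adjusted p of the 8 members ran from 0.522 to 0.976. At an unadjusted p under 0.05 there was 1 member, Prrx1, while 8.77% of all genes tested were at that level. DESeq2 and limma-voom also called 0 members. Both tdTomato+ libraries lay above both ZsGreen+ libraries, in CPM (counts scaled to library size), for 4 members, Snai1, Snai2, Prrx1 and Cdh11. That was so for 19.9% of all genes tested. No member lay lower in both tdTomato+ libraries, against 18.2% of all genes, and 4 members overlapped between groups. Groups without overlap in either direction were thus found for 4 of 8 members and for 38.1% of all genes. The median log2 fold change of the 8 members was 0.26, beside -0.007 for all genes tested. Prrx1 passed the filter on low counts only through the tdTomato+ libraries, where it is high. Its direction in the counts above, at the unadjusted p and in the median was thus set by the filter and is no evidence of a difference. Fewer cells with a transcript and less RNA per cell cannot be told apart in bulk libraries.

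The libraries held between 17050673 and 18574737 counts over coding genes. Endothelial markers were present throughout, with Pecam1, the endothelial adhesion molecule, at 900.35 to 986.15 TPM (transcripts scaled to transcript length and library size), and the 20 endothelial identity genes summed to 12200 and 12300 TPM in tdTomato+ cells and 12800 and 12700 TPM in ZsGreen+ cells. The recorded gene Acta2 stood at 281.04 and 450.16 TPM in tdTomato+ cells and at 62.08 and 70.61 TPM in ZsGreen+ cells. For Acta2 the log2 fold change came to 2.29 (SE 0.29, edgeR adjusted p = 0.0432), and the call ended without tdTomato+ replicate 2 (edgeR adjusted p = 0.126) or ZsGreen+ replicate 2 (0.111).

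**Figure D1:**
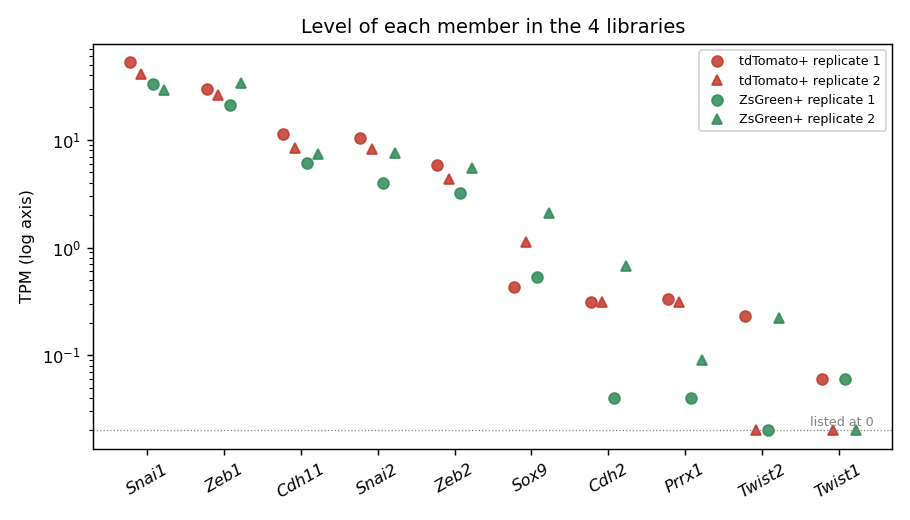
TPM of the 10 genes (log axis) in each of the 4 libraries, ordered by mean; circles and triangles are replicates 1 and 2, and values listed at 0 sit on the dotted line. Snai1 and Zeb1 lie above the other genes, between 20.97 and 52.46 TPM, while Prrx1, Cdh2, Twist1 and Twist2 lie below 1 TPM in every library.

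Levels per transcript length fell into 3 tiers. The first held Snai1, at a mean of 38.9 TPM (SD 10.4, n = 4 libraries), and Zeb1, at 27.6 TPM (SD 5.56), which overlapped: Snai1 was the higher in 3 of 4 libraries. Snai1 exceeded 81% of the genes in the table by mean TPM and Zeb1 75.8%. The second tier held Cdh11 at 8.33 TPM (SD 2.3), Snai2 at 7.53 TPM (SD 2.64) and Zeb2 at 4.73 TPM (SD 1.19), and each overlapped its neighbour in range. Within libraries Cdh11 was above Snai2 in 3 of 4, and Snai2 above Zeb2 in 4 of 4. Zeb1 was above Cdh11 in 4 of 4 libraries with no overlap. The lowest tier began with Sox9 at 1.05 TPM (SD 0.767), below Zeb2 with no overlap, and went on to Cdh2 at 0.335 TPM, Prrx1 at 0.193 TPM, Twist2 at 0.113 TPM and Twist1 at 0.03 TPM. Neighbours within that tier overlapped in range, though Sox9 was above Cdh2 in 4 of 4 libraries. Transcripts of Snai1, Snai2, Zeb1 and Zeb2 were thus present in the libraries of both groups, and those of the Twist factors and Prrx1 were scarce in both. Markers of leukocytes, fibroblasts and lung epithelium were present too, at levels given below, and how much of the members' RNA came from such cells was not tested.

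Snai1, the founding Snail repressor, stood at 52.46 and 41.26 TPM in the tdTomato+ libraries and at 33.01 and 28.9 TPM in the ZsGreen+ libraries. Both tdTomato+ libraries were the higher ones. On the CPM scale, which adjusts for library composition, the gap was narrower, with 46.2 and 38.3 CPM against 36.2 and 26.7 CPM. The log2 fold change was 0.43 (SE 0.23, 95% interval -0.12 to 0.97, edgeR adjusted p = 0.717), a fold of 1.34 with an interval from 0.92 to 1.96. Snai1 (NCBI Gene 20613) lies at 167538195 to 167542814 of chromosome 2 in GRCm38, has 1 transcript in the table and overlaps no other GENCODE M21 gene.

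Snai2, or Slug, the second Snail repressor, stood at 10.3 and 8.27 TPM in tdTomato+ cells and at 3.96 and 7.6 TPM in ZsGreen+ cells. The upper ZsGreen+ library lay just below the lower tdTomato+ library. The log2 fold change was 0.56 (SE 0.35, 95% interval -0.28 to 1.39, edgeR adjusted p = 0.779). Without ZsGreen+ replicate 1, the lowest library, it was 0.26, and without ZsGreen+ replicate 2 it was 0.95. Snai1 made up 83.6% and 83.3% of the summed Snai1 and Snai2 TPM in tdTomato+ cells and 89.3% and 79.2% in ZsGreen+ cells. The ZsGreen+ shares lay on either side of the tdTomato+ shares, so the balance within the family showed no separation by group. Snai2 (NCBI Gene 20583) lies at 14704666 to 14757386 of chromosome 16. Snai3, the third Snail gene, named outside the rule for names, was at 0.26 TPM or lower in every library.

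Zeb1, a repressor with zinc finger clusters at both ends, stood at 29.5 and 25.89 TPM in tdTomato+ cells and at 20.97 and 34.11 TPM in ZsGreen+ cells. The ZsGreen+ libraries held both the lowest and the highest value, with the tdTomato+ libraries between them. Its log2 fold change was -0.09 (SE 0.20, 95% interval -0.57 to 0.39, edgeR adjusted p = 0.958), which on the fold scale runs from 0.674 to 1.31. The sign turned on the scale of log2(TPM + 1), where the value was 0.04. Zeb1 (NCBI Gene 21417, chromosome 18) is the member with the most reads, 1340 to 2101 per library, and has 27 transcripts in the table.

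Zeb2, its paralogue, stood at 5.85 and 4.37 TPM in tdTomato+ cells and at 3.22 and 5.48 TPM in ZsGreen+ cells, again with the groups interleaved. Its log2 fold change was 0.10 (SE 0.26, 95% interval -0.51 to 0.72, edgeR adjusted p = 0.966), and the sign turned without ZsGreen+ replicate 1 (-0.13) or tdTomato+ replicate 1 (-0.08). Zeb1 made up 83.5% and 85.6% of the summed Zeb TPM in tdTomato+ cells and 86.7% and 86.2% in ZsGreen+ cells. Both Zeb genes were lowest in ZsGreen+ replicate 1, as were 6 of the 8 members tested by CPM, against 29.7% of all genes tested. This pattern was noticed in these values. The 6 include Cdh2, with 2 reads in that library, and Prrx1. Prrx1 passed the filter on low counts only through the tdTomato+ libraries, so its lowest library had to be a ZsGreen+ one. Zeb2 (NCBI Gene 24136) lies at 44983512 to 45118048 of chromosome 2. The antisense gene Zeb2os shares 3.27% of its exonic bases in GENCODE M21, and Gm10125 shares 1.93% of those of Zeb1. Whether counting used strand is not stated, so reads from such shared stretches cannot be assigned.

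The Twist factors, which act as dimers with E proteins, were near the limit of detection and were not tested. Twist1 had 1 and 0 reads in the tdTomato+ libraries and 1 and 0 in the ZsGreen+ libraries. Twist2 had 3 and 0 reads against 0 and 3. The summed Twist2 count of 3 per group has an exact 95% Poisson interval from 0.619 to 8.77 counts, and that of Twist1, 1 per group, from 0.0253 to 5.57, which cover counting error only. Both genes were at or under a floor of 3 counts per group (0.0834 CPM by raw totals in tdTomato+ and 0.0852 CPM in ZsGreen+ cells), so no fold is given and a difference was not detectable at this depth. Antisense Gm29100 covers 46.5% of the exonic bases of Twist2. Twist1 (NCBI Gene 22160) lies at 33957671 to 33959831 of chromosome 12 and Twist2 (NCBI Gene 13345) at 91798528 to 91848034 of chromosome 1.

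Prrx1, a homeobox factor of limb and connective tissue mesenchyme, had 17 and 18 reads in the tdTomato+ libraries and 2 and 5 in the ZsGreen+ libraries. The groups did not overlap, at 0.33 and 0.31 TPM against 0.04 and 0.09 TPM. The log2 fold change was 2.17 (SE 0.85, 95% interval 0.16 to 4.18), with an unadjusted p of 0.0379 and an edgeR adjusted p of 0.522. The summed counts were 35, with a 95% Poisson interval from 24.4 to 48.7, and 7, with one from 2.81 to 14.4. Prrx1 passed the filter on low counts only through the tdTomato+ libraries, where it is high, so its direction had to be this one. Prrx1 (NCBI Gene 18933) lies at 163245119 to 163315145 of chromosome 1.

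Among 15 fibroblast markers, all tested, 9 were higher in both tdTomato+ libraries and none was lower in both. Over all genes tested those shares were 19.9% and 18.2%. The median log2 fold change of the 15 markers was 1.27. edgeR called none of them with all 4 libraries and the filter on low counts, while it called 2 without that filter and 1 without ZsGreen+ replicate 1, and DESeq2 called 3, all higher in tdTomato+ cells. Their summed level was 217 and 313 TPM in tdTomato+ cells and 123 and 112 TPM in ZsGreen+ cells, and none was at 0 throughout. Pi16, of adventitial fibroblasts, stood at 52.44 and 64.42 TPM against 12.24 and 5.59 TPM (edgeR adjusted p = 0.111, DESeq2 9.48e-07). The collagen Col3a1 stood at 17.79 and 33.93 TPM against 5.99 and 9.21 TPM (edgeR adjusted p = 0.164, DESeq2 0.000553). Pdgfra, the general fibroblast receptor, named outside the rule for names, was at 0.61 and 0.92 TPM against 0.56 and 0.58 TPM. The part of such RNA in the Prrx1 reads was not tested.

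Sox9, a factor of cartilage and airway progenitors, had 19 and 55 reads in the tdTomato+ libraries and 25 and 98 in the ZsGreen+ libraries, or 0.43 and 1.13 TPM against 0.53 and 2.1 TPM. Replicate 2 held more than replicate 1 in both groups, and the groups overlapped. The log2 fold change was -0.82 (SE 0.76, 95% interval -2.62 to 0.98, edgeR adjusted p = 0.86), and without ZsGreen+ replicate 2 it was 0.31. That library also held the most Scgb1a1, the secretory protein of airway club cells, named outside the rule for names, at 2098.04 TPM beside 79.09 to 292.54 TPM in the others. The alveolar surfactant gene Sftpc went the other way, at 661.78 and 700.52 TPM in tdTomato+ and 340.06 and 171.37 TPM in ZsGreen+ cells, and was lowest in that library. The 12 lung epithelial markers summed to 1110 and 1230 TPM in tdTomato+ and 513 and 2360 TPM in ZsGreen+ cells, and without Scgb1a1 to 832 and 935 TPM against 434 and 264 TPM. None was at 0 throughout, 8 were higher in both tdTomato+ libraries, beside 19.9% of all genes tested, and the median log2 fold change was 0.94. Among the 8 was Epcam, with 20 and 13 reads against 6 and 8. It passed the filter on low counts only through the tdTomato+ libraries, so its direction was set by the filter. edgeR called none of the 12 and DESeq2 called 3, all higher in tdTomato+ cells. Without ZsGreen+ replicate 1 edgeR called 4, of which 3 were higher and 1, Scgb1a1, lower. Whether epithelial RNA carried the Sox9 reads was not tested. Sox9 (NCBI Gene 20682) lies at 112782210 to 112787757 of chromosome 11.

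**Figure D2:**
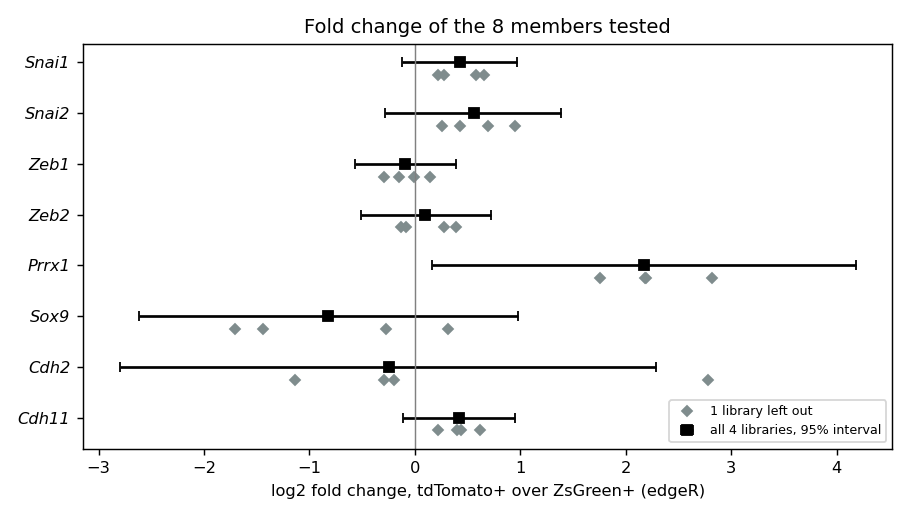
log2 fold change of the 8 genes tested, tdTomato+ over ZsGreen+. Squares and bars are the edgeR estimate with its 95% interval from all 4 libraries, and grey diamonds the estimate with 1 library left out. Snai1, Snai2 and Cdh11 keep positive estimates between 0.22 and 0.95, and Cdh2 moves between -1.14 and 2.78.

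The mesenchymal cadherins were minor parts of the cadherin transcripts in both groups. Cdh11, cadherin 11 of mesenchymal cells, stood at 11.45 and 8.43 TPM in tdTomato+ cells and at 6.06 and 7.37 TPM in ZsGreen+ cells, with both tdTomato+ libraries the higher ones. Its log2 fold change was 0.42 (SE 0.22, 95% interval -0.11 to 0.95, edgeR adjusted p = 0.709), a fold of 1.34 with an interval from 0.928 to 1.93. Cdh11 (NCBI Gene 12552) lies at 102632095 to 102785493 of chromosome 8.

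Cdh2, N-cadherin, had 16 and 18 reads in the tdTomato+ libraries and 2 and 37 in the ZsGreen+ libraries. The ZsGreen+ libraries thus held both extremes, at 0.04 and 0.68 TPM around 0.31 TPM in each tdTomato+ library. The log2 fold change was -0.25 (SE 1.07, 95% interval -2.80 to 2.29, edgeR adjusted p = 0.976). It was 2.78 without ZsGreen+ replicate 2 (edgeR adjusted p = 0.379) and -1.14 without ZsGreen+ replicate 1, so single libraries set its sign and these data do not fix a direction for N-cadherin. Cdh2 (NCBI Gene 12558) is on chromosome 18.

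Set beside 18 other cadherin genes, Cdh11 and Cdh2 made up 1.24% and 1.39% of the summed cadherin TPM in tdTomato+ cells and 0.68% and 1.23% in ZsGreen+ cells. The mean share was 1.32% against 0.95%, a difference of 0.37 percentage points that is below the SD of the ZsGreen+ pair (0.39, n = 2). It was 0.09 without ZsGreen+ replicate 1 and 0.64 without ZsGreen+ replicate 2. The lower tdTomato+ share, 1.24%, and the upper ZsGreen+ share, 1.23%, were nearly equal. Cdh5, VE-cadherin of endothelial junctions, whose promoter also drives the Cre, made up most of the rest, at 81.7% and 72.2% in tdTomato+ cells and 93.5% and 91.4% in ZsGreen+ cells. Cdh5 stood at 772.29 and 453.42 TPM against 839.03 and 600.15 TPM and was not called (log2 fold change -0.42, SE 0.33, edgeR adjusted p = 0.833).

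**Figure D3:**
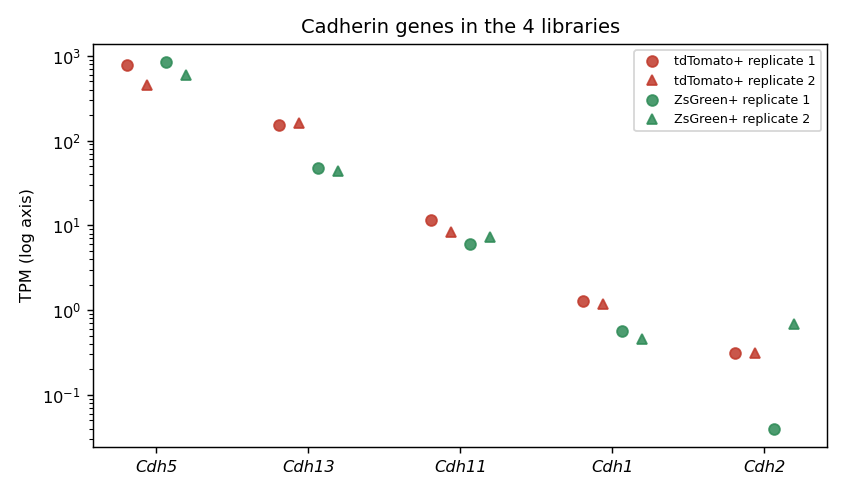
TPM (log axis) of Cdh5, Cdh13, Cdh1 and the members Cdh11 and Cdh2 in each of the 4 libraries; circles and triangles are replicates 1 and 2. Cdh13 separates the groups, at 153.14 and 160.73 TPM in tdTomato+ and 47.35 and 43.85 TPM in ZsGreen+ cells, while Cdh5 overlaps.

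The cadherin that rose in tdTomato+ cells was Cdh13, T-cadherin, a lipid-anchored cadherin that binds adiponectin and low density lipoprotein. It stood at 153.14 and 160.73 TPM in tdTomato+ cells and at 47.35 and 43.85 TPM in ZsGreen+ cells. The log2 fold change was 1.62 (SE 0.20, 95% interval 1.14 to 2.10, edgeR adjusted p = 0.0432). The estimate ran from 1.46 to 1.68 across the fits without tdTomato+ replicate 1, tdTomato+ replicate 2 or ZsGreen+ replicate 2, in which the call ended (edgeR adjusted p = 0.116, 0.28 and 0.0674). Its share of the cadherin TPM was 16.2% and 25.6% in tdTomato+ cells and 5.28% and 6.68% in ZsGreen+ cells. Of the 18 other cadherins 5 were tested and Cdh13 alone was called, 5 (Cdh10, Cdh12, Cdh18, Cdh20 and Cdh22) were at 0 in every library, and the median log2 fold change of those tested was 0.65. Cdh1, E-cadherin, the classic target of Snail and Zeb repression, was low in all libraries, at 1.27 and 1.17 TPM against 0.57 and 0.46 TPM (log2 fold change 1.07, SE 0.51, edgeR adjusted p = 0.637). Of 9 epithelial state factors 3 were tested, Cdh1, Epcam and Esrp2, and none was called. All 3 were higher in both tdTomato+ libraries, beside 19.9% of all genes tested, with a median log2 fold change of 1.11. Epcam and Esrp2 passed the filter on low counts only through the tdTomato+ libraries. Their direction, and that of the median, was thus set by the filter.

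Catenins, the cytoplasmic partners of cadherins, gave no call among 4 of 7 genes tested, and their median log2 fold change was -0.24. Of the 4, Jup, Ctnna1 and Ctnnd1 were lower in both tdTomato+ libraries in CPM, 3 of 4 beside 18.2% of all genes tested. In TPM the groups overlapped for Ctnna1 and Ctnnd1. Jup, plakoglobin, was lower in both tdTomato+ libraries, at 307.06 and 315.41 TPM against 436.94 and 535.49 TPM (log2 fold change -0.79, SE 0.19, edgeR adjusted p = 0.218, DESeq2 0.0013).

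Partners of the regulators showed no call either. All 7 E protein and Id genes were tested, with a median log2 fold change of 0.18. Tcf4, an E protein that can pair with Twist factors, stood at 112.28 and 89.77 TPM in tdTomato+ cells and at 64.14 and 98.78 TPM in ZsGreen+ cells, so a dimer partner was plentiful where the Twist factors themselves were near 0. Id2, which sequesters E proteins, was higher in both tdTomato+ libraries, at 100.88 and 86.22 TPM against 63.48 and 56.62 TPM (log2 fold change 0.47, SE 0.21, edgeR adjusted p = 0.593). The 15 cofactor and turnover genes of Snail and Zeb factors had a median of -0.11, and Ctbp1, a corepressor of Zeb factors, stood at -0.30 (SE 0.18).

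Of 12 other transition factors 7 were tested and none was called, with a median log2 fold change of 0.74. Foxc2, a forkhead factor of vessel and lymphatic development, stood at 8.05 and 5.25 TPM in tdTomato+ cells and at 3.14 and 1.07 TPM in ZsGreen+ cells (log2 fold change 1.44, SE 0.58, edgeR adjusted p = 0.544). The estimate for Foxc2 was 2.59 without ZsGreen+ replicate 1, where edgeR called it (adjusted p = 0.0439), and 0.80 without ZsGreen+ replicate 2. Its relative Foxc1 stood at 2.9 and 6.18 TPM against 1.47 and 2.53 TPM (1.07, SE 0.46, edgeR adjusted p = 0.582). Runx2, a bone lineage factor, was at 0.56 and 0.46 TPM against 0.23 and 0.09 TPM. Sox4, a factor linked to transition in epithelia, stood at 68.7 and 69.56 TPM against 53.65 and 54.5 TPM. These 4, named by smallest p, were the tested factors of the list with both tdTomato+ libraries above both ZsGreen+ libraries in CPM, 4 of 7 beside 19.9% of all genes, and the other 3 overlapped.

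Structural genes of the mesenchymal state held 2 calls among 21 of 22 genes tested, with a median log2 fold change of 0.53. Both, Acta2 and Fn1, were higher in tdTomato+ cells, beside 0.167% of all genes tested that were called higher. Acta2 is the recorded gene that defined the groups, so its call is not independent of the grouping. Fn1, fibronectin, stood at 47.78 and 40.09 TPM in tdTomato+ cells and at 12.63 and 9.82 TPM in ZsGreen+ cells (log2 fold change 1.80, SE 0.24, edgeR adjusted p = 0.0467). Its call ended without tdTomato+ replicate 1, tdTomato+ replicate 2 or ZsGreen+ replicate 2 (edgeR adjusted p = 0.12, 0.186 and 0.0553) and with limma on log2(TPM + 0.1) (0.0505). Mmp2, a gelatinase, had a log2 fold change of 1.98 (SE 0.27, edgeR adjusted p = 0.0525), and Cd44, the hyaluronan receptor, one of 1.07 (SE 0.19, edgeR adjusted p = 0.122). Of the 21 genes tested, 12 were higher and 5 lower in both tdTomato+ libraries in CPM, beside 19.9% and 18.2% of all genes tested. DESeq2 called 7 genes of this list, all higher, Mmp2 (adjusted p = 1.83e-08) and Cd44 (0.000943) among them. The list shares 3 genes, Col1a1, Col1a2 and Col3a1, with the fibroblast markers, whose levels are given beside Prrx1.

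Among the 20 endothelial identity genes, all tested, the median was -0.12 on the log2 scale, with 7 above 0. edgeR called none of them and DESeq2 called 3. Vwf, von Willebrand factor, had a log2 fold change of 1.47 (SE 0.25, edgeR adjusted p = 0.103, DESeq2 7.97e-07), and edgeR called it without ZsGreen+ replicate 1 (0.0345). Nos3, nitric oxide synthase of endothelium, had one of 1.09 (SE 0.27, edgeR adjusted p = 0.231, DESeq2 0.0103), and Cldn5, a tight junction gene, one of -0.84 (SE 0.22, edgeR adjusted p = 0.272, DESeq2 0.0123). Of 7 lymphatic endothelial markers tested 3 were called lower in tdTomato+ cells, Thy1, Mmrn1 and Reln, beside 0.137% of all genes tested. The median of the 7 was -2.03. Thy1 stood at 7.7 and 9.22 TPM in tdTomato+ cells and at 48.74 and 71.38 TPM in ZsGreen+ cells (log2 fold change -2.96, SE 0.24, edgeR adjusted p = 0.0304), and its call ended without tdTomato+ replicate 2 (0.102). The calls of Mmrn1 and Reln each ended in 6 of 13 alternatives, among them limma-voom (adjusted p = 0.0637 and 0.107), upper quartile factors in edgeR (0.052 and 0.0523) and edgeR without tdTomato+ replicate 2 (0.23 and 0.2). Of the 7, 6 were lower in both tdTomato+ libraries, beside 18.2% of all genes tested. Lyve1, a hyaluronan receptor, overlapped at 338.21 and 536.8 TPM against 221.14 and 380 TPM. The list summed to 415 and 593 TPM against 408 and 637 TPM, and without Lyve1 to 77.2 and 56.2 TPM against 187 and 257 TPM. None was at 0 throughout. Their part in the levels of the members was not tested.

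**Figure D4:**
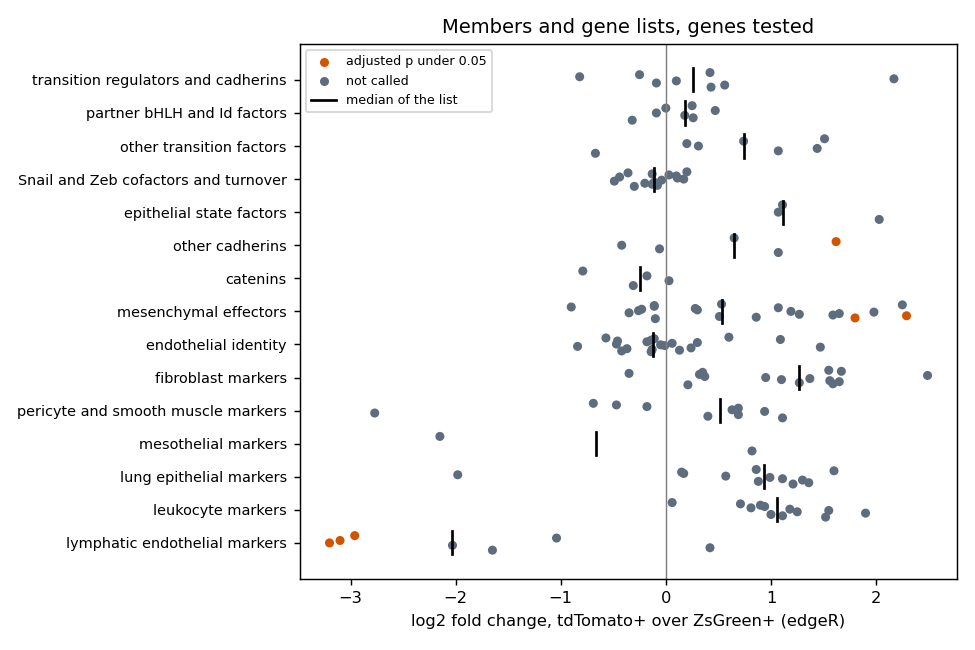
log2 fold change, tdTomato+ over ZsGreen+, of the genes tested in each list; points are genes, coloured where the edgeR adjusted p is under 0.05, and bars are list medians. The 8 transition regulators and cadherins spread around a median of 0.26 with none called, while the called genes of the other lists are Cdh13, Acta2, Fn1, Thy1, Mmrn1 and Reln.

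For the 12 leukocyte markers the median was 1.05 on the log2 scale. Of them 4 were higher in both tdTomato+ libraries, beside 19.9% of all genes tested, while 8 overlapped. edgeR called none with all 4 libraries and 4 without ZsGreen+ replicate 1, and DESeq2 called 1, all higher in tdTomato+ cells. They summed to 9260 and 4280 TPM in tdTomato+ and 4170 and 1040 TPM in ZsGreen+ cells, most of it Lyz2, the lysozyme of macrophages, and without Lyz2 to 1860 and 796 TPM against 784 and 206 TPM. Pericyte and smooth muscle markers interleaved between groups: of 12 genes 10 were tested and none was called, with a median of 0.52. Of the 10 tested, 2 were higher and 2 lower in both tdTomato+ libraries, beside 19.9% and 18.2% of all genes. The list summed to 19.7 and 32.1 TPM against 17.4 and 29 TPM. Pdgfrb, the pericyte receptor, was at 1.59 and 1.68 TPM against 0.61 and 0.77 TPM. It was the 1 marker higher at an unadjusted edgeR p under 0.05, and Kcnj8 was the 1 lower. The lowest log2 fold change of the list was -2.77. The 5 mesothelial markers summed to 2.74 and 7.3 TPM against 4.12 and 10 TPM, and these sums overlapped. Of the 5, 2 were tested, of which edgeR called none and DESeq2 called 1, lower in tdTomato+ cells. Gpm6a was lower in both tdTomato+ libraries, at 1.19 and 1.52 TPM against 2.87 and 8.44 TPM. Without Gpm6a the sums were 1.55 and 5.78 TPM against 1.25 and 1.6 TPM. The part of these cells in the members' levels was not tested.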

How the data were processed

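RNA of lung endothelial cells was extracted with a column kit, amplified over the whole transcriptome and sequenced as 4 libraries, per the labels' protocols. Such amplification from small inputs may widen differences among libraries, and the labels name no molecular identifiers. RSEM 1.3.1 and DESeq2 1.4.5 and the builds mm10 and GRCm38 are named, without roles, per the submitters' processing notes. The authors deposited 4 kinds of value per library: estimated counts (read counts, per the file headers), FPKM, TPM, and normalized counts, a signal near the count times 0.946, 0.913, 1.113 and 0.94 per library, in the order tdTomato+ 1 and 2 and ZsGreen+ 1 and 2. All 40 counts of the members were whole numbers, while 16.2% to 17.9% of all counts were not. Levels are the deposited TPM.

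Estimated counts were rounded and tested with edgeR 4.0.16 (R 4.3.3; two-sided quasi-likelihood F-test, TMM, filterByExpr with a minimum count of 10, Benjamini-Hochberg over 13177 genes). CPM use TMM-scaled totals. The SE of a fold change was derived from the F statistic (its size divided by the root of F). With 2 against 2 libraries no permutation test can pass 0.05. The fits were tested on simulated data. Tried in turn were DESeq2 1.42.0, limma-voom (limma 3.58.1), the scaling factors RLE and upper quartile, no filter and 1 CPM in 2 libraries, a replicate block, each library left out, and limma on log2(TPM + 1) and log2(TPM + 0.1), and for the cadherin shares FPKM and counts. Members and lists were chosen with earlier results of these data known. Named are the members, Cdh5, Acta2, and at most 4 genes of each list, taken by smallest p where mean CPM reached 1. Other genes, named after their values were seen, are Snai3, Pdgfra, Scgb1a1, Epcam, Esrp2, Pecam1, Lyz2, Lyve1, the cadherins at 0 and the collagens shared by 2 lists. Ccl21a of the lymphatic list was not analysed here. Gene spans are those of the deposited table, and overlaps come from GENCODE M21, also GRCm38.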

Additional observations from a re-analysis of the deposited data

How the results depend on the processing

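The count of 0 members called held in all 13 alternatives, and 89 of 98 member estimates kept their sign. Zeb1 turned to 0.04 on log2(TPM + 1), 0.05 on log2(TPM + 0.1) and 0.14 without ZsGreen+ replicate 2; on the TPM scales the median of all genes was 0.12 and 0.134, above Zeb1. Zeb2 turned to -0.13 without ZsGreen+ replicate 1 and -0.08 without tdTomato+ replicate 1, Sox9 to 0.31 without ZsGreen+ replicate 2, and Cdh2 to 2.78 without ZsGreen+ replicate 2, 0.64 with limma-voom and 0.25 with the replicate block. Among other named genes Scgb1a1 turned to 1.52 without ZsGreen+ replicate 2 (range without 1 library -2.91 to 1.52) and Pdgfra to -0.25 without tdTomato+ replicate 2 (-0.25 to 0.57). The cause was not tested. Leaving out 1 library gave ranges of 0.22 to 0.66 for Snai1, 0.26 to 0.95 for Snai2, -0.29 to 0.14 for Zeb1, -0.13 to 0.39 for Zeb2, 1.76 to 2.82 for Prrx1, -1.71 to 0.31 for Sox9, -1.14 to 2.78 for Cdh2 and 0.22 to 0.62 for Cdh11. The difference in cadherin share ran from 0.09 to 0.64 percentage points.

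The 40 calls over all genes (22 higher, 18 lower) became 330 with DESeq2, 128 without a filter (83 higher, 45 lower), 22 on log2(TPM + 0.1) (16 higher, 6 lower), 934 with the replicate block (679 higher, 255 lower) and 4 to 304 without 1 library: dropping replicate 1 or 2 of tdTomato+ left 17 or 4, and dropping replicate 1 or 2 of ZsGreen+ left 304 or 26. On log2(TPM + 1) the 31 calls were 22 higher and 9 lower. Of 80 context genes tested 3 were called, 12 with DESeq2, 8 without a filter, 14 with the replicate block and 0 to 8 without 1 library. The labels give only replicate numbers. Over 13177 genes the difference between replicates 1 and 2 correlated between the groups (Pearson 0.45, genes not being independent). Whether the numbers mark a shared source was not tested. With the block 7 fibroblast, 9 leukocyte, 5 lung epithelial, 6 lymphatic, 8 mesenchymal effector and 3 endothelial identity genes were called, Pi16 (adjusted p = 4.3e-23), Col3a1 (1.02e-10), Vwf (1.66e-06), Jup (0.0199) and Foxc2 (0.000551) among the genes called that edgeR did not call without it. The block also called 1 pericyte and smooth muscle marker and 1 mesothelial marker, both lower. It called no member, and the adjusted p of Prrx1 in it was 0.216. Prrx1 and Cdh2 fell out of the stricter filter and both TPM scales, which therefore give no value for them.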
